A study of Mus musculus with 8 samples.

Results

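The immunoglobulin constant region genes examined here are 10 genes that encode the constant parts of antibody heavy and light chains. They are Ighm and Ighd, which are used before class switching, Igha, Ighg1, Ighg2b, Ighg2c and Ighg3, which are used after it, and the light chain genes Igkc, Iglc1 and Iglc2. They were chosen by symbol, and all 10 were found among the 23084 genes of the deposited table, each listed once. The RNA came from spleen myeloid cells of C57BL/6 mice aged 6 to 8 weeks, sorted as monocytic CD11b+Ly6C+ or granulocytic CD11b+Ly6G+ cells. The mice were wild type (wt) or Lmna MyeKO, in which floxed Lmna, the gene of lamin A/C, is crossed with LysM-Cre. LysM-Cre lies in the lysozyme locus Lyz2, so recombination is driven in cells of the myeloid lineage, and B cells are not its target. The 8 samples form 4 groups of 2, namely wt CD11b+Ly6C+, wt CD11b+Ly6G+, Lmna KO CD11b+Ly6C+ and Lmna KO CD11b+Ly6G+. Subsets were read from the sample titles, because the label for the sorting markers gives CD11b+Ly6C+ throughout, and no label says whether the replicates are separate animals.

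An antibody heavy chain is made by joining a rearranged variable segment to a constant gene. Ighm and Ighd, for IgM and IgD, are read from one primary transcript by alternative splicing in mature B cells. Class switching then deletes the DNA between the variable segment and a downstream constant gene, so that the same B cell lineage makes IgG, IgE or IgA. Each heavy chain pairs with a kappa light chain, whose only constant gene is Igkc, or with a lambda chain, which uses a constant gene such as Iglc1 or Iglc2. These genes are expressed by B cells and plasma cells, and the sorted cells studied here were myeloid.

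The only measurement used is the authors' deposited mean signal per gene, which is a mean of read counts divided by library size factors. Per-sample values were not used here, and so neither a spread between replicates, nor a test, nor a comparison of genotypes or subsets is given. The methods give reads per sample as a range, and the depth of any single library is unknown here. The lowest means carry a trace of the libraries averaged: all 975 means under 0.35 are sums of whole multiples of 8 step sizes, within 2e-09, each in 1 way only. Each step was read as what 1 read in 1 library adds to the mean, and the steps range from 0.0539 to 0.0916. Their number is that of the samples in the series. With 8 libraries, however, the size factors would be 1.36 to 2.32, all above 1, around which such factors usually centre. Which samples were averaged is therefore not settled, and subsets and genotypes cannot be told apart in the means. The largest step gives an upper limit on the counting error of a mean, written below as a standard error (SE). It rests on that reading of the steps and covers counting error only. As decoded, 1 library held at least 2 reads in each of the 975 genes, and why was not tested. In such bulk samples, fewer cells of a type and less RNA per cell cannot be told apart.

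The 4 gamma genes resemble each other, and their hinge exons are shown because this short exon differs in length and bases among them. The sequences are from the GENCODE M21 transcripts on the mm10 build, all on the minus strand and all exon 2 of the secreted form. Capitals mark the bases at which Ighg2b and Ighg2c differ from each other or have no counterpart, and the exons of Ighg1 and Ighg3 carry no such mark.
Ighg1 (chr12:113329844-113329882, 39 bases): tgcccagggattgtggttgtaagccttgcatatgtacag
Ighg2b (chr12:113307261-113307326, 66 bases): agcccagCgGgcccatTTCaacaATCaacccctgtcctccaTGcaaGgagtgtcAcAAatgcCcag
Ighg2c (chr12:113288263-113288325, 63 bases): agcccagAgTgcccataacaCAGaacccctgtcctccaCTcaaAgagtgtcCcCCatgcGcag
Ighg3 (chr12:113360529-113360576, 48 bases): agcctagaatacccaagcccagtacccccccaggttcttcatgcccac
Over the whole secreted coding sequence, Ighg2b and Ighg2c were identical at 85.6% of aligned positions, and the other gamma pairs at 73.9 to 75.5%. Of all 50-base windows of the coding sequence, 5.85% of those in Ighg2b and 5.86% of those in Ighg2c also occur in the other gene. No 100-base window was shared. Ighm and Ighd were identical at 37.6% of positions. Gaps count as positions in all these shares. The coding sequences of Ighm and Ighd are 1364 and 773 bases long, so their unequal length lowers this value.

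The lambda genes are alike in the same way, and the first bases of their constant exons are shown because Iglc3, which is not among the 10 genes, is close to Iglc2. All lie on the minus strand of mm10, and capitals mark bases that differ from Iglc2.
Iglc2 (chr16:19198763-19198852): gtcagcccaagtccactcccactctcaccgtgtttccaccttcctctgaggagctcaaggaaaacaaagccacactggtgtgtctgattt
Iglc3 (chr16:19065592-19065681): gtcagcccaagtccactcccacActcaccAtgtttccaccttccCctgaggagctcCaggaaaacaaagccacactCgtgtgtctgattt
Iglc1 (chr16:19061982-19062071): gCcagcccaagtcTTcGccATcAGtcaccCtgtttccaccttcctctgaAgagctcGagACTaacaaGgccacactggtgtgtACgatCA
In this window of 90 bases, Iglc3 differs from Iglc2 at 5 positions and Iglc1 at 19. Over the full coding sequence Iglc2 and Iglc3 were identical at 96.2% of aligned positions and share 14.3% of their 50-base windows and no 100-base window, while Iglc1 and Iglc2 were identical at 73.4%. The split of reads between Ighg2b and Ighg2c, and between Iglc2 and Iglc3, may be less certain than the other levels. How many reads were shared was not measured, and it depends on the read length.

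All 10 constant genes were well above the typical gene of the table. Levels are compared between genes per kb, which means that the mean signal was divided by the summed length of the gene's merged exons in kb. On that scale the median gene of the table lay at 18.8, and the 10 constant genes lay between 295 and 76527, a 260-fold range. Their median percentile was 98.6 among the 23004 genes with a length, and the lowest, Ighg1, was at percentile 84.5. Together they held 0.619% of the summed signal of all listed genes. The order from high to low was Igkc, Ighm, Ighg2c, Igha, Ighg2b, Ighd, Iglc2, Iglc1, Ighg3 and Ighg1. Whether neighbours in this order differ beyond the spread between samples could not be tested.

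**Figure D1:**
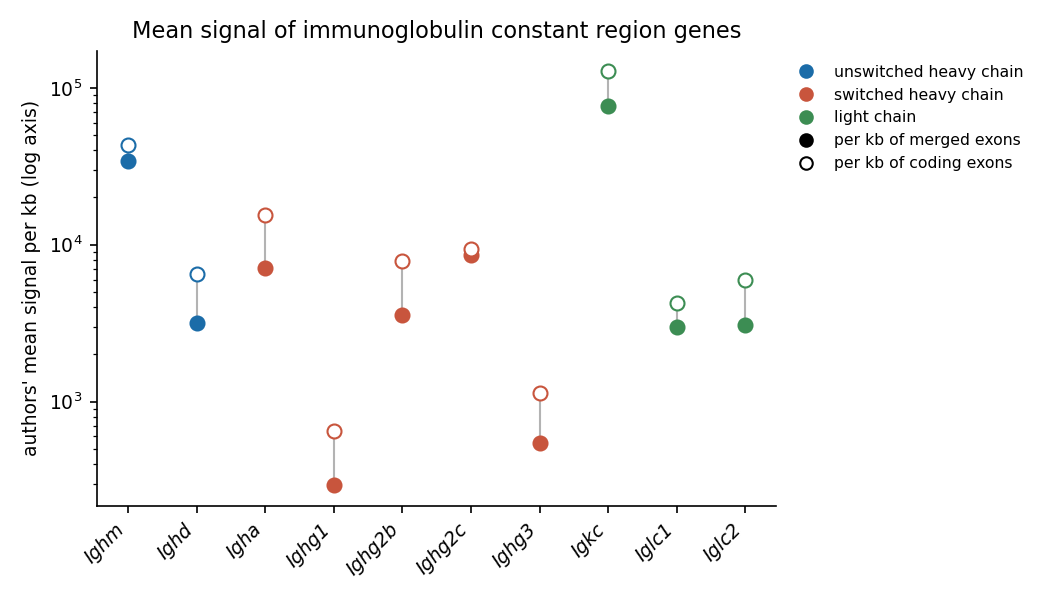
Authors' mean signal per kb of the 10 constant genes on a log axis, with filled points per kb of merged exons and open points per kb of merged coding exons, coloured by class. Igkc and Ighm are the 2 highest genes by either length and Ighg1 the lowest, while Igha lies below Ighg2c by merged exons and above it by coding exons.

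Among the unswitched genes, Ighm (ENSMUSG00000076617.9, chr12:113418558-113422730) encodes the mu chain of IgM. Its mean signal was 64122 with an SE of at most 76.7, or 33999 per kb, which was rank 30 of all genes with a length. It was the highest heavy chain constant gene and held 59.4% of the summed heavy chain signal per kb. Ighd (ENSMUSG00000104213.5, chr12:113406604-113416324) encodes the delta chain of IgD, found on mature naive B cells. Its mean signal was 6060 with an SE of at most 23.6, or 3190 per kb. Ighm was 10.7-fold higher than Ighd per kb of merged exons, with a 95% counting interval of ± 0.0850, and 6.67-fold higher per kb of coding exons. Ighd was thus a small part of the unswitched signal by either length. Unswitched genes held 64.9% of the heavy chain signal, and 59.0% when coding exons were used.

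The switched genes divided into 3 with high and 2 with low levels. Ighg2c (ENSMUSG00000076612.7, chr12:113285325-113288932) encodes the heavy chain of IgG2c, which C57BL/6 mice make in place of IgG2a. No gene named Ighg2a is listed in the table, so its level was not measured here. The mean signal of Ighg2c was 11340 with an SE of at most 32.2, or 8552 per kb. Igha (ENSMUSG00000095079.6, chr12:113254830-113260236) encodes the alpha chain of IgA, the antibody of mucosal secretions. Its mean signal was 18957 with an SE of at most 41.7, or 7105 per kb. Ighg2b (ENSMUSG00000076613.3, chr12:113302965-113307933) had a mean signal of 9612 with an SE of at most 29.7, or 3589 per kb. These 3 genes were the bulk of the switched signal per kb, at 42.6% for Ighg2c, 35.4% for Igha and 17.9% for Ighg2b.

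Ighg3 and Ighg1 were far lower. Ighg3 (ENSMUSG00000076615.3, chr12:113356224-113361232), an IgG class made without T cell help against carbohydrates, had a mean signal of 1365 with an SE of at most 11.2, or 543 per kb. Ighg1 (ENSMUSG00000076614.7, chr12:113325240-113330523), the main class of T cell-dependent responses driven by IL-4, had a mean signal of 764 with an SE of at most 8.37, or 295 per kb. They held 2.70% and 1.47% of the switched signal. Per kb of merged exons Ighm was 115-fold higher than Ighg1, Ighg2c 29.0-fold and Ighg2b 12.2-fold. Per kb of coding exons these were 66.8-fold, 14.4-fold and 12.2-fold, and with the shortest transcript 60.5-fold, 14.4-fold and 12.2-fold. Ighg1 was at 0.543 of Ighg3.

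The order of Ighg2c and Igha turned with the length used. The annotation gives Ighg2c merged exons of 1326 bases and Ighg2b merged exons of 2678 bases, although their coding exons are 1216 and 1219 bases long. Per kb of coding exons Igha, at 15475, lay above Ighg2c, at 9326, and the shares of the switched signal became 44.9% for Igha, 27.1% for Ighg2c and 22.9% for Ighg2b. Ighg2c was then 1.18-fold above Ighg2b, against 2.38-fold per kb of merged exons. Igha stood at 0.547 of the 4 gamma genes summed per kb of merged exons and at 0.815 of them per kb of coding exons. Ighg3 and Ighg1 were the lowest switched genes under all 5 choices of length.

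**Figure D2:**
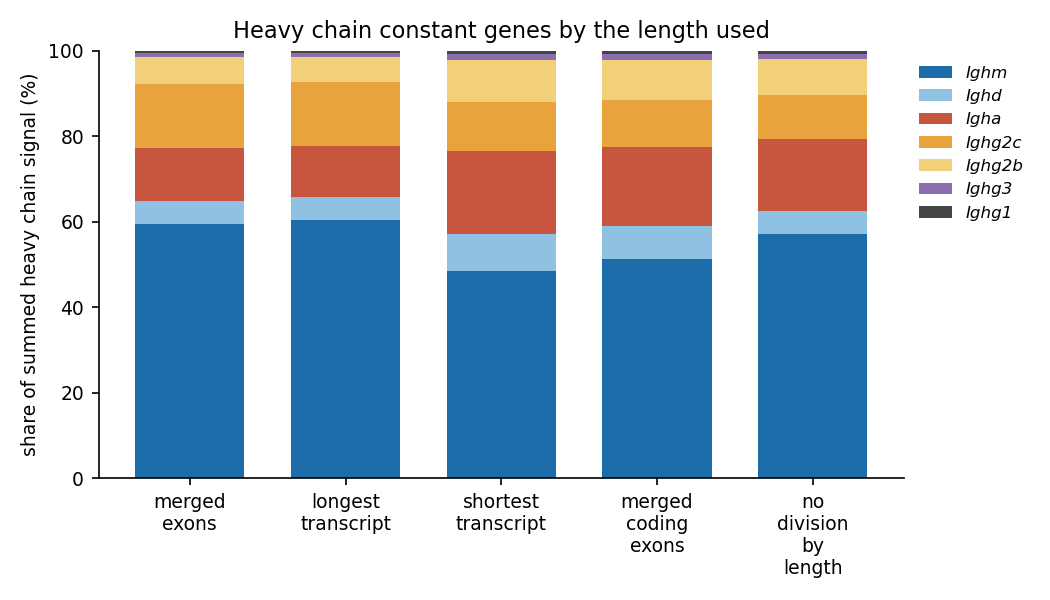
Share of the summed heavy chain constant signal, in percent, held by each of the 7 heavy chain genes under 5 choices of length. Ighm is the largest part in every bar, the unswitched share lies between 57.0 and 65.7%, and Ighg2c and Igha exchange places between the choices.

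Along chromosome 12 the constant genes lie, in the direction of transcription, in the order Ighm, Ighd, Ighg3, Ighg1, Ighg2b, Ighg2c, Ighe and Igha. Levels did not fall steadily with distance from Ighm. Ighg3 and Ighg1, which start 61.5 and 92.2 kb downstream, were lower than Ighg2b at 115 kb, Ighg2c at 134 kb and Igha at 162 kb. Ighe, the gene of IgE, lies between Ighg2c and Igha at 149 kb and is not among the 10 genes. Its mean signal was 23.0, or 14.5 per kb, which was below the median gene of the table. Adding it to the switched genes left the unswitched share at 64.9%.

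**Figure D3:**
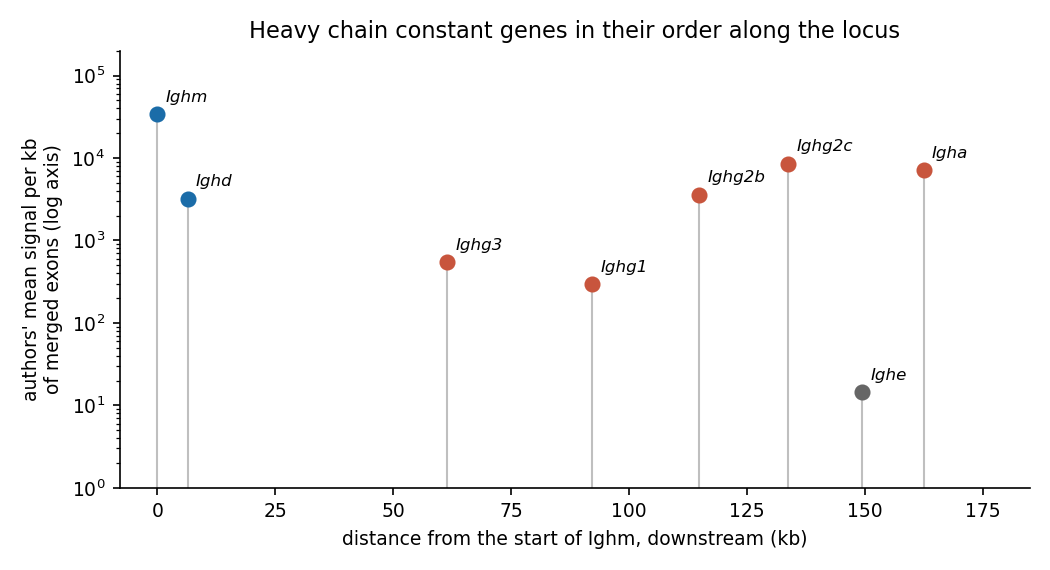
Authors' mean signal per kb of merged exons on a log axis against the distance in kb from the start of Ighm to the start of each heavy chain constant gene. Unswitched genes are blue, switched genes red and Ighe, which is not among the 10 genes, grey at 14.5; the switched genes at 115 to 162 kb other than Ighe lie above those at 61.5 and 92.2 kb.

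Kappa was the dominant light chain. Igkc (ENSMUSG00000076609.2, chr6:70726435-70726966, plus strand) had a mean signal of 40712 with an SE of at most 61.1. At 76527 per kb it was the highest of the 10 constant genes and rank 14 of all genes with a length. Iglc2 (ENSMUSG00000076937.3, chr16:19198396-19200351) had a mean signal of 1888 with an SE of at most 13.2, or 3085 per kb. Iglc1 (ENSMUSG00000105906.1, chr16:19061618-19062071) had a mean signal of 1353 with an SE of at most 11.1, or 2980 per kb. Igkc therefore held 92.7% of the light chain signal per kb, 12.6 times the sum of both lambda genes.

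Iglc2 and Iglc1 differed little per kb of merged exons, at a ratio of 1.04 with a 95% counting interval of ± 0.0219, and by 1.40-fold per kb of coding exons. Iglc3, which is close to Iglc2 in sequence, had a mean signal of 752, or 1664 per kb. Iglc4 was close to absent, with a mean decoded as 3 reads in 2 libraries. No decoded gene held fewer reads, so Iglc4 lay at the floor of the listed genes. At least 2 of its 3 reads fall in the library that held at least 2 reads in every decoded gene. With both added to the lambda genes, the kappa share was 90.8%. The annotated exons of Iglc2 overlap those of the joining segment Iglj2 by 38 bases on the same strand, so reads of that stretch cannot be assigned to one gene with certainty.

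The light and heavy chain genes could not be ordered independently of length, because Igkc has 532 bases of exon and Ighm 1886. The 3 light chain genes summed to 82592 per kb and the 7 heavy chain genes to 57274, a ratio of 1.44. Without division by length the ratio was 0.392. Per kb Ighm lay at 0.444 of Igkc, and undivided it was 1.58-fold above it.

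The constant genes were next set beside markers of the cells that make antibody, to describe which other transcripts of those cells were in the same means. All 10 B cell markers were listed, from 80.4 per kb for Ebf1, a transcription factor of B cells, to 4065 per kb for Cd79a, with a median of 799. Cd79a and Cd79b, the signalling partners of membrane immunoglobulin in the B cell receptor, lay at 4065 and 3166 per kb. Of the 10 constant genes, Igkc, Ighm, Ighg2c and Igha lay above Cd79a, the other 6 lay within the range of the B cell markers, and 0 lay below it. The number above the highest B cell marker was 4 also per kb of coding exons and with the longest transcript. It was 6 undivided and 2 with the shortest transcript, by which Pax5 was the highest marker at 20478. Ighm was 8.36-fold above Cd79a per kb of merged exons and 4.81-fold above it per kb of coding exons. Ighd was at 0.785 of Cd79a per kb of merged exons and at 0.721 per kb of coding exons, but at 1.02 undivided and 1.86 with the shortest transcript, so this order turned with the length.

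All 10 plasma cell markers were also listed, with a median of 343 per kb. The highest was Jchain, which links IgA and IgM into polymers, at 4310 per kb. The lowest was Tnfrsf17, the survival receptor BCMA, at 30.1. Mzb1, a chaperone of immunoglobulin folding, lay at 650. Igha was 1.65-fold above Jchain per kb of merged exons but at 0.680 of it per kb of coding exons, so their order turned with the length. Ighm was above Jchain by either length, at 7.89-fold and 1.90-fold. Transcripts of receptor assembly and DNA repair lay below each of the 10 constant genes, which leave out Ighe and Iglc4. The list of 6 such genes had a median of 41.2 per kb. It ran from 7.68 for Rag2, of the recombinase that joins V, D and J segments, to 54.2 for Dntt, which adds bases at their joints. Vpreb1 and Igll1, the parts of the surrogate light chain of B cell precursors, lay at 43.9 and 38.5. Of the plasma cell markers, Sdc1 at 50.7, Prdm1 at 36.9 and Tnfrsf17 at 30.1 lay in the same range. The other plasma cell markers lay above it. Besides Mzb1 and Jchain, these were Derl3 at 56.4, Irf4 at 177, Txndc5 at 509, Pou2af1 at 894 and Xbp1 at 1155.

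Markers of the labelled myeloid cells were present in the same means. The 10 neutrophil markers had a median of 47126 per kb, from 8337 for Ly6g to 1389954 for S100a9. The 10 monocyte markers had a median of 637, below the 799 of the B cell markers, and ran from 37.1 for Ly6c1 to 28928 for Chil3. Chil3 and Itgam, of that list, are also expressed by granulocytes, so it is not specific to monocytes. The 10 T and NK cell markers had a median of 168, from 26.2 for Ncr1 to 787 for Trbc2. The part of B cells, plasma cells or free RNA in the constant gene signal was not tested, and the share of cells of each type is not measured by these means.

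Receptors that bind antibody through its constant part were described last, since myeloid cells carry many of them. The 10 genes of the list had a median of 608 per kb. The highest was Fcer1g, the signalling chain shared by activating Fc receptors, at 13573. Fcgr3 and Fcgr4, activating receptors for IgG, lay at 7657 and 3722. Fcmr, the receptor for IgM that B cells carry, lay at 1466. The lowest was Pigr, which carries polymeric IgA and IgM across epithelia, at 1.51.

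**Figure D4:**
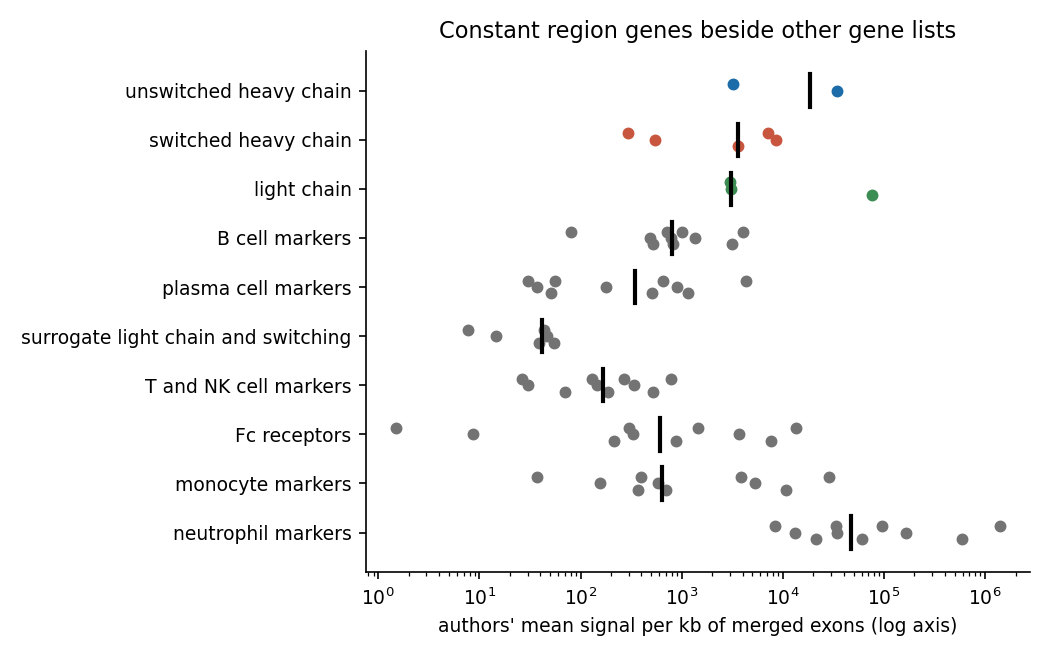
Authors' mean signal per kb of merged exons on a log axis for the 3 classes of constant genes and 7 other gene lists, 1 point per gene, with a black bar at the median of each list. Igkc and Ighm lie above every B cell, plasma cell and T and NK cell marker, while 6 of the 10 neutrophil markers lie above Ighm and 4 above Igkc.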

How the data were processed

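Spleen cells were sorted and RNA was sequenced. The paper's methods name a flow cytometer or magnetic beads for sorting, and do not say which served for sequencing. The authors used Cutadapt 1.14 for trimming, STAR 2.5.2b in two-pass mode for alignment to mm10, estimated gene counts with RSEM 1.3.0 on GENCODE M12 and compared groups with DESeq2 1.20.0. Read length and strandedness are not given in the sources used here.

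The deposited signal is the authors' mean per gene of counts divided by size factors. The other columns of the table hold the authors' test of Lmna KO against wt within CD11b+Ly6C+ cells, namely log2 fold changes, their standard errors, a test statistic, p-values, adjusted p-values and a signed fold change. They were not used, and the planned count test, which needs values of single samples, was not made. Genotypes and subsets were not compared.

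Means were divided by gene length from GENCODE M21, which shares the build and gave a length to 23004 of 23084 genes. Its gene version was that of the table for 7 of the 10 constant genes and differed for Ighg2b, Ighg2c and Ighg3. Alternatives were no division, the longest or shortest transcript, coding exons, and added constant genes. The SE was the square root of the mean times the largest step. The decoding was also run on simulated counts, built from steps of the same number and of similar size. These counts were also given at least 2 reads in 1 library and at least 3 in all for every gene, as decoded in the data. That run cannot show whether the steps are read rightly here. Python 3.11.15, numpy 2.4.6, pandas 2.3.3 and Biopython 1.88 were used, with global alignment for identities and gaps counted as positions.

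The constant genes and the gene lists were chosen with earlier results of these data known. Named are the constant genes, the highest, lowest and sometimes the median gene of each list, and Cd79a, Cd79b, Jchain and Mzb1. Fcgr3, Fcgr4, Fcmr, Vpreb1, Igll1, Sdc1, Prdm1, Derl3, Irf4, Txndc5, Pou2af1, Xbp1 and the variable genes were named after their values were seen. A gene of one list is not reported here.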

Additional observations from a re-analysis of the deposited data

How the results depend on the processing

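With no values of single samples, the limits below cover length and gene choice only, and a value counts as moved where it left the counting interval of the reported one or, for the median percentile, differed by 1 percentile or more. Of 40 alternative values for 7 results, 26 moved and 14 did not. With no division by length, the longest transcript, coding exons and, added after the data were seen, the shortest transcript, the unswitched share of 64.9% was 62.5, 65.7, 59.0 and 57.0%. The Ighg2b share of 17.9% was 22.9, 17.5, 22.9 and 22.7%, and Ighm over Cd79a, 8.36 as reported, was 10.8, 9.29, 4.81 and 10.6. Light over heavy chain signal, 1.44 as reported, was 0.392, 1.32, 1.64 and 0.944, so its order reversed undivided and with the shortest transcript. Ighd over Ighm, 0.0938 as reported, was 0.0889 with the longest transcript, 0.150 with coding exons and 0.176 with the shortest. The kappa share of 92.7% was 92.5% with coding exons, 91.5% with the shortest transcript and 90.8% with Iglc3 and Iglc4, which brought light over heavy to 1.47. The median percentile of 98.6 was 97.5 undivided, 96.8 with coding exons and 94.3 with the shortest transcript. Summing repeated symbols could not move a constant gene, since each is listed once, so the 14 include values that were fixed in advance. Adding Ighe does not enter Ighd over Ighm. No paired analysis was possible because only 1 mean per gene was used, with nothing measured per sample, so leaving out replicates was not run either.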

Other observations

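The variable genes gave the other end of the same transcripts, and were added after the data were seen. The 106 listed heavy chain V genes summed to a mean signal of 13304, which per kb was 0.623 of the 7 heavy chain constant genes. The 100 kappa V genes summed to 23880, or 0.833 of Igkc per kb, and the 3 lambda V genes to 2052, or 0.872 of Iglc1 and Iglc2 per kb. Iglc3, at 1664 per kb, is left out of that lambda ratio, which would be lower with it. No single heavy or kappa V gene held a large part. The highest of the heavy chain, Ighv1-26, had a mean signal of 786 or 5.91% of the heavy V signal, and the highest of the kappa genes had 2276 or 9.53% of the kappa V signal. Among the lambda V genes, Iglv1 held 85.6%, with a mean signal of 1756 against 176 for Iglv2 and 120 for Iglv3.

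As decoded, the same 1 library held at least 2 reads in each of the 975 genes with a mean under 0.35, and the genes held 3 to 5 reads in all. The library is not named in the table, and why every low mean holds this common part was not tested. The reading of a step as 1 read, the SE and the decoded reads of Iglc4 rest on the same decoding.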
